A study of Homo sapiens with 14 samples.

Results

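At 16 h, chromatin from BJ hTERT cells given an ATR inhibitor (ATRi) carried more RNA polymerase II (RNAPII) than chromatin from cells given DMSO over genes of the contractile cytoskeleton, immediate early regulators, YAP and TGF-beta targets and p53 targets. It carried less over ribosomal protein genes. These shifts were small, mostly below 2-fold, and were read with both of the antibodies used. The gene groups were chosen with earlier results of these data known. The comparison rests on 4 of the 14 chromatin immunoprecipitation and sequencing (ChIP-seq) libraries of the series: total RNAPII in ATRi, total RNAPII in DMSO, Ser2 RNAPII in ATRi and Ser2 RNAPII in DMSO, all at 16 h. Of the 12425 genes in the deposited table, 11959 were nuclear and had a mean of at least 1 read per 1000000 library reads (RPM) over these libraries, 452 nuclear genes fell below that level and 14 were mitochondrial.

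BJ hTERT cells are human foreskin fibroblasts, 1 line made immortal with the telomerase gene, so all libraries share its genotype and its telomerase transgene. DMSO is the vehicle. The total antibody is described in the sample labels as raised to the N-terminal domain of Rpb1, the largest RNAPII subunit, and the other as specific for Rpb1 phosphorylated at serine 2 (Ser2). The protocol text of the same samples names antibodies to phosphorylated histone H2A.X and histone H3 instead, so antibody identity rests on the sample labels. The inhibitor and its dose, the event from which the hours count and any synchronisation of the cells are not given in the sources used here.

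ATR is the kinase that senses single-stranded DNA at stalled replication forks, restrains the firing of late origins and, through CHEK1, holds cells back from mitosis. RNAPII is recruited to promoters, pauses just downstream, and acquires serine 2 phosphorylation on the repeats of its C-terminal tail as it elongates, so that Ser2 ChIP marks productively transcribing polymerase and total ChIP all bound forms. A collision of transcription with replication is a known source of fork stalling in S phase, and the study asked how inhibition of ATR affects RNAPII in that phase.

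Each group held 1 library. A difference between ATRi and DMSO therefore has no replicate check, no p-value is given for it, and intervals in the text are exact 95% counting intervals on the recovered reads, which cover counting error only. The intervals are for the ratio of reads without the 0.5 RPM that is added for the log2 ratios. Beside a gene with few reads, the printed ratio is therefore nearer 0 than the middle of its interval. The antibodies see different forms of RNAPII and are not replicates of each other, and whether they were used on the same chromatin is not stated. Their agreement is given as a description. Library totals were 19273038 reads for total ATRi, 26482785 for total DMSO, 19539110 for Ser2 ATRi and 38269525 for Ser2 DMSO. The median gene held 494, 653, 325 and 596 reads in the same order of libraries, and nuclear genes took 52.0%, 49.4%, 37.1% and 35.8% of the reads. A value is the RPM over the whole gene span, not divided by length, and a log2 ratio is that of ATRi to DMSO on log2(RPM + 0.5). Fibroblast markers were well covered, with a median density of 2.95 RPM per kb over the 14 measured in total DMSO, against 0.734 for all genes. Of markers of other cells, 1 of 10 for keratinocytes (KRT15), 1 of 7 for melanocytes (MITF), 2 of 8 for endothelium (VWF and TEK) and 0 of 10 for blood were measured. MITF, at 0.26 RPM per kb, and the endothelial pair, with a median of 0.218 RPM per kb, lay close to 0.224 RPM per kb, the level outside the listed genes in the same library. That level is an estimate, the reads not counted in listed genes over the span those genes leave uncovered. It includes unlisted genes, and reads in overlapping genes may be subtracted more than once. KRT15 lay above that level, at 0.477 RPM per kb.

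Over all genes the ATRi to DMSO ratio was centred slightly above 0. The median log2 ratio was 0.05 in total RNAPII, with quartiles of -0.05 and 0.17, and 0.06 in Ser2, with quartiles of -0.04 and 0.20. With no spike-in value used here, a shift shared by all genes cannot be told apart from a difference in immunoprecipitation. Ratios of at least 0.3 on the log2 scale, which is 1.23-fold, are called higher below and ratios of -0.3 or less lower. By that rule 1047 genes (8.75%) were higher and 163 (1.36%) lower in total RNAPII, and 1544 (12.9%) were higher and 83 (0.694%) lower in Ser2.

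The antibodies agreed in the main on the genes that gained. In both antibodies 552 genes (4.62%) were higher and 18 (0.151%) lower, and 23 genes (0.192%) went past 0.3 in opposite directions. Of the genes higher in total RNAPII, 52.7% were also higher in Ser2, and of those higher in Ser2, 35.8% were also higher in total RNAPII. For the lower genes the same shares were 11.0% and 21.7%. Of the 1047 genes higher in total RNAPII, 934 (89.2%) lay above the median gene in Ser2, and of the 163 lower genes, 109 (66.9%) lay below it. Across the 11959 genes Pearson's r between the log2 ratios was 0.505 and Spearman's rho 0.493, and 8183 genes (68.4%) were on the same side of the median gene in both. Genes are not independent, and gene length, read density and the mapping are common to both antibodies. The counting intervals lay above 0 in both antibodies for 1667 genes, below 0 in both for 272 and on opposite sides for 32.

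**Figure D1:**
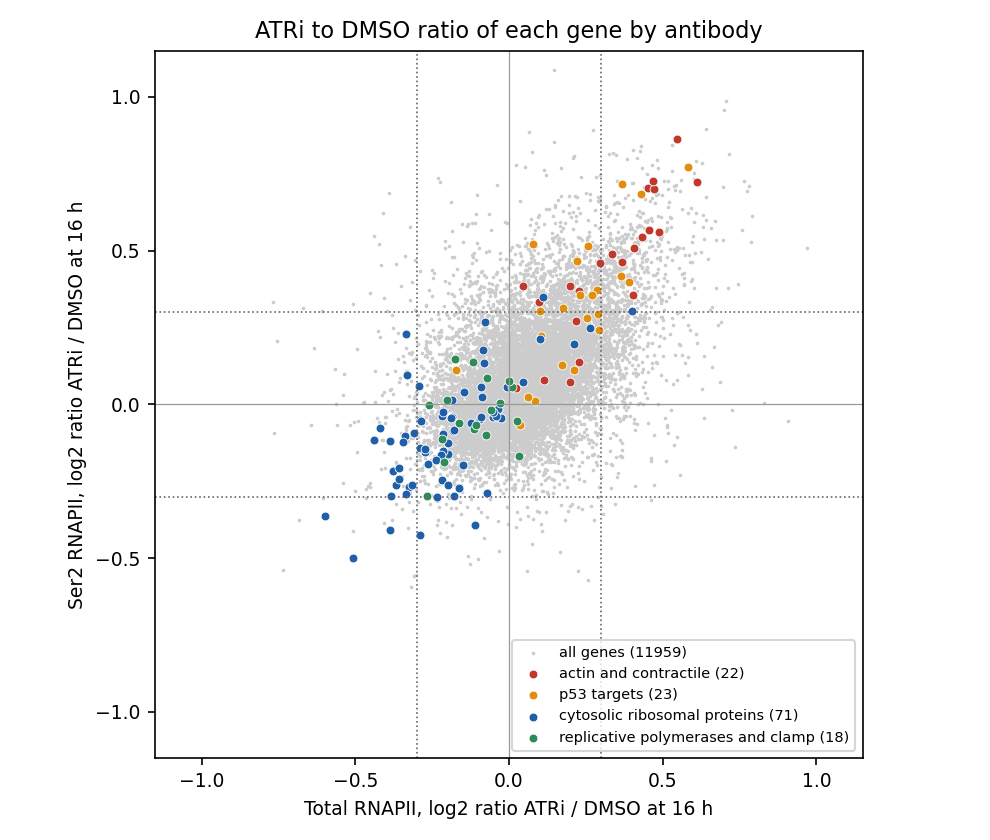
Log2 ratio of ATRi to DMSO at 16 h in total RNAPII (x axis) and Ser2 (y axis), 1 point per gene, for 11959 genes (grey) and 4 gene groups (colours); dotted lines mark 0.3 and -0.3. Contractile genes and p53 targets lie towards the upper right and cytosolic ribosomal protein genes towards the lower left, and the whole cloud is stretched along the diagonal with an r of 0.505.

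Agreement went with how many reads a gene held. With genes split into 5 equal groups by the smallest of their 4 read numbers, r was 0.247 in the group with the fewest reads (8 to 140) and then 0.500, 0.598, 0.677 and 0.808 in the group with the most. The median gene length rose from 5.98 kb to 156 kb over the same groups, and read number and length were not told apart. In the group with the fewest reads the SD of the log2 ratios over genes was 0.219 in total RNAPII and 0.226 in Ser2. The counting error there was 0.196 and 0.233, about as wide. It was computed on reads without the 0.5 RPM pseudocount, which narrows the ratios of genes with few reads, so it overstates the share of counting there. In the group with the most reads these SDs were 0.151 and 0.145, against counting errors of 0.0455 and 0.0477. There the difference between the antibodies had an SD of 0.0919, against 0.0659 from counting, and 79.4% of genes were on the same side of the median gene in both, against 58.4% in the group with the fewest reads.

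**Figure D2:**
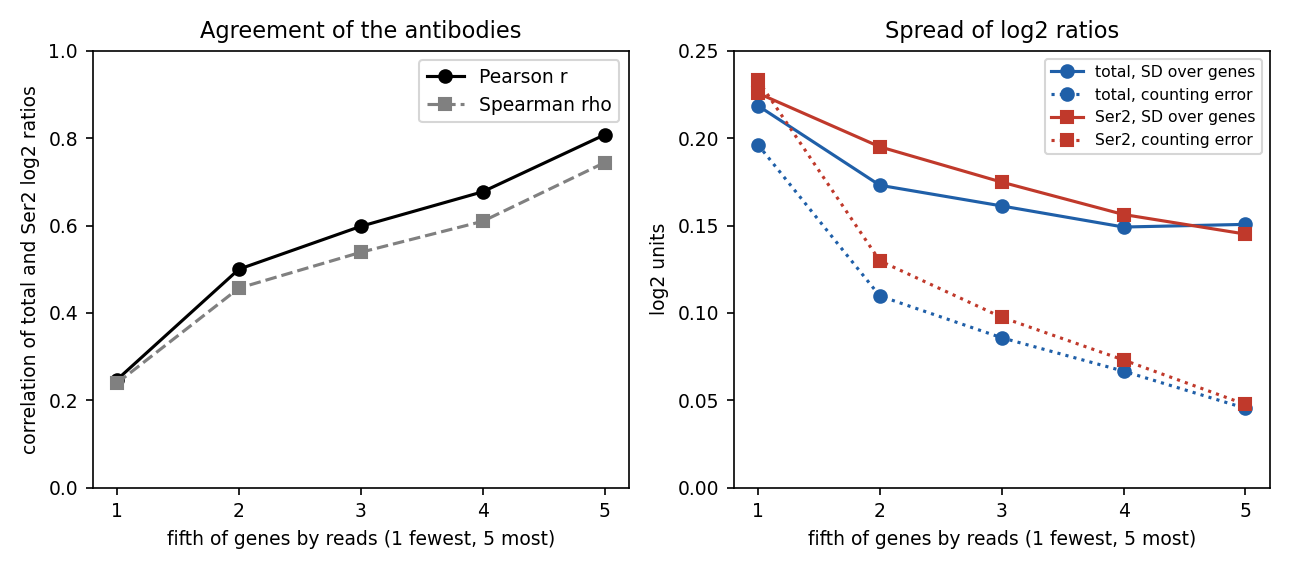
Left, correlation of the total and Ser2 log2 ratios across genes in 5 equal groups by number of reads, from 0.247 to 0.808 for Pearson's r. Right, SD of the log2 ratios over the same genes (solid) and the size expected from counting alone (dotted), which lie close together in the group with the fewest reads and apart in the others. The counting size was computed without the pseudocount that the ratios carry.

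The largest gain seen with both antibodies, ranked by the weaker of the pair among named genes with at least 100 reads in each library, was that of MYL12A, which encodes a regulatory light chain of non-muscle myosin (chromosome 18, 3247481 to 3256236, hg38). It held 60.2 RPM in total ATRi against 35.3 RPM in total DMSO, and 24.5 RPM in Ser2 ATRi against 14.6 RPM in Ser2 DMSO. The log2 ratios were 0.76 (0.65 to 0.90) and 0.73 (0.57 to 0.92), or 1.70-fold and 1.65-fold. No other gene in this ranking was as high with both antibodies.

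Several of the genes that ranked next link the cell to its matrix or to its filaments. ITGA5, the alpha subunit of the fibronectin receptor, had 70.1 RPM in total ATRi against 43.1 in DMSO and 37.9 RPM in Ser2 ATRi against 23.0 in DMSO, with ratios of 0.70 (0.59 to 0.82) and 0.71 (0.58 to 0.86). PLEC, the gene of the filament linker plectin, had 315 RPM in total ATRi against 203 in DMSO and 162 RPM in Ser2 ATRi against 93.6 in DMSO (0.63 and 0.79). TPM1, which encodes a tropomyosin that lines actin filaments, had 314 RPM in total ATRi against 206 in DMSO and 145 RPM in Ser2 ATRi against 87.6 in DMSO (0.61 and 0.72). In each of these 3 genes the ATRi library was the higher one with both antibodies, with counting intervals that stayed above 0.5 on the log2 scale. CAVIN1, a coat protein of caveolae, followed with 0.64 and 0.67, and MMP14, a membrane-anchored matrix metalloproteinase, with 0.64 and 0.60. TPM1-AS ranked high too (0.61 and 0.79), but it lies wholly within TPM1 on the other strand, so its reads and those of TPM1 cannot be told apart.

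Other genes near the top had unrelated roles. MT2A, a metallothionein that binds zinc and other metals, had 23.1 RPM in total ATRi against 13.9 in DMSO and 8.19 RPM in Ser2 ATRi against 4.44 in DMSO, with ratios of 0.72 (0.53 to 0.94) and 0.81 (0.56 to 1.20). FOXC2, a forkhead transcription factor, had 0.78 and 0.71. ULK1, the kinase that starts autophagy, stood out in Ser2, with 29.6 RPM in ATRi against 14.7 in DMSO, a ratio of 0.99 (0.84 to 1.18), beside 0.71 (0.58 to 0.85) in total RNAPII. TGIF1, a repressor of TGF-beta signalling, had 0.63 and 0.62. ABTB1 (0.64 and 0.89), PTTG1IP (0.79 and 0.61), TMEM184A (0.61 and 0.62) and IRF2BPL (0.60 and 0.73) complete the 15 highest. The 15th gene had a weaker ratio of 0.599 and the 16th 0.598, so the end of this list is arbitrary.

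Losses seen with both antibodies were fewer and smaller on this scale. Ratios also rose with read density, and with that trend removed 105 genes were higher and 123 lower in both. RPL13A, a protein of the large ribosomal subunit (chromosome 19, 49487554 to 49492308), had 26.4 RPM in total ATRi against 37.6 in DMSO and 10.7 RPM in Ser2 ATRi against 15.3 in DMSO. Its log2 ratios were -0.51 (-0.67 to -0.36) and -0.50 (-0.75 to -0.29), the lowest weaker ratio of any named gene with at least 100 reads in each library. TNC, which encodes the matrix glycoprotein tenascin C (chromosome 9, 115019578 to 115118257), had 76.4 RPM in total ATRi against 123 in DMSO and 54.3 RPM in Ser2 ATRi against 70.7 in DMSO, with ratios of -0.68 (-0.78 to -0.60) and -0.38 (-0.48 to -0.28). With at least 1061 reads in each library, it was the deepest of the 18 genes lower in both.

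The rest of the lower group held more ribosome-related genes. RPL22L1 had -0.60 and -0.36, RPL32 -0.39 and -0.41, and DDX21, a nucleolar RNA helicase needed to make ribosomes, -0.38 and -0.38. NDUFB10, a subunit of respiratory complex I, had -0.41 and -0.39. KITLG, the ligand of the KIT receptor, had 73.5 RPM in total ATRi against 92.2 in DMSO and 45.7 RPM in Ser2 ATRi against 57.1 in DMSO (-0.32 and -0.32), and RIBC2 had -0.35 and -0.34. Just outside the rule of size were RPS23 (-0.38 and -0.30), SURF1 (-0.30 and -0.32), RPS19 (-0.34 and -0.29), RPS10 (-0.33 and -0.29), EHD3 (-0.46 and -0.28), PRIM1 (-0.27 and -0.30) and RGS4 (-0.46 and -0.26), which complete the 15 lowest. For RPS10 and RGS4 the Ser2 counting interval reached above 0, and RPS23 shares 67.0% of its span with other listed genes.

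**Figure D3:**
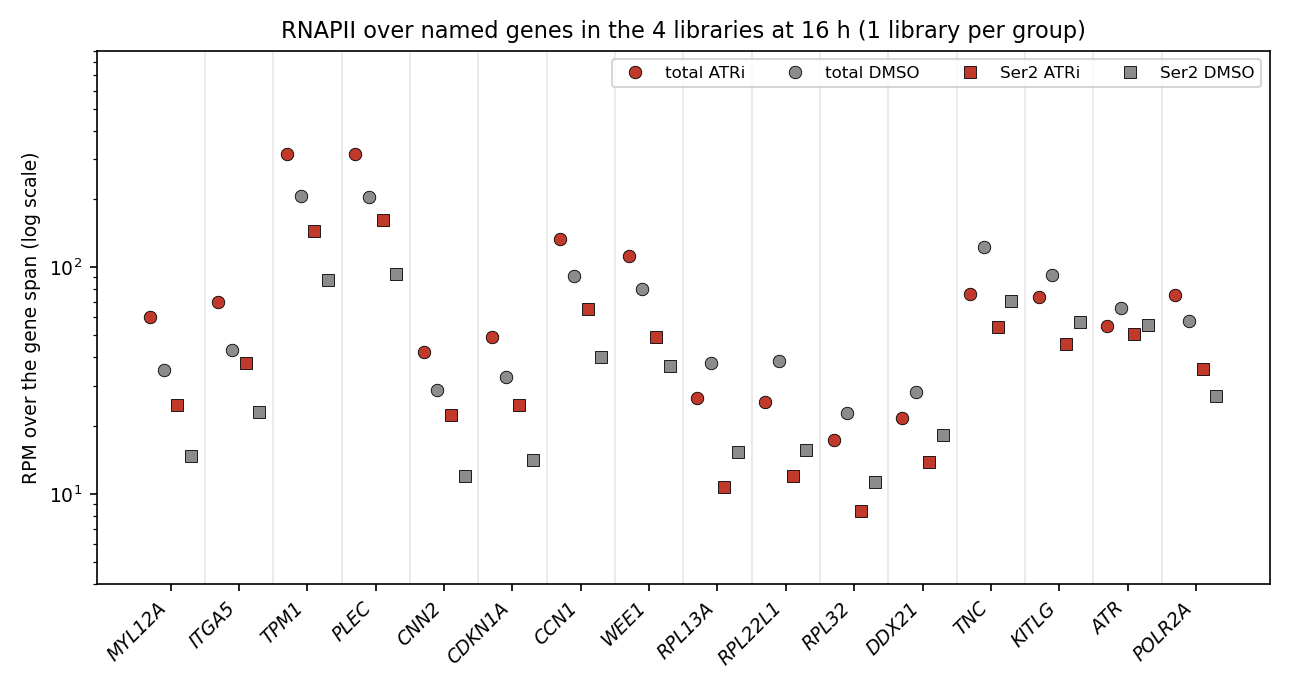
RPM over the gene span, on a log scale, in the 4 libraries at 16 h for 16 genes named in the text, 1 library per group; red is ATRi and grey DMSO, circles are total RNAPII and squares Ser2. From MYL12A to WEE1 and in POLR2A the ATRi point is above its DMSO point with both antibodies, and from RPL13A to ATR it is below.

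The gene groups here and below were chosen with earlier results of these data known. The excess of a group over the share of all genes is therefore a description and not a test. Genes of the actin and contractile apparatus gave the highest group values. Of the 22 measured of 25 listed, 20 in total RNAPII and 21 in Ser2 lay above the median gene, and the group median exceeded that of all genes by 0.30 in total RNAPII and 0.40 in Ser2. Past the threshold, 12 were higher in total RNAPII and 17 in Ser2, and 12 of 22 were higher in both, where 4.62% of all genes were. None was lower. CNN2, which encodes a calponin that binds actin and myosin, had 42.1 RPM in total ATRi against 28.7 in DMSO and 22.2 RPM in Ser2 ATRi against 11.99 in DMSO, with ratios of 0.55 (0.41 to 0.70) and 0.86 (0.70 to 1.08). FLNA, the actin crosslinker filamin A, had 194 RPM in total ATRi against 140 in DMSO and 96.4 RPM in Ser2 ATRi against 58.1 in DMSO (0.47 and 0.73). TAGLN (0.49 and 0.56), TPM2 (0.47 and 0.70), ZYX, a focal adhesion protein (0.45 and 0.57), PDLIM7 (0.45 and 0.70) and MYL9 (0.43 and 0.54) were alike. At the other end ACTA2, smooth muscle actin, had 0.11 and 0.08, and TNS1, a tensin of focal adhesions, 0.02 and 0.05. ACTA2 shares 72.7% of its span with other listed genes. These genes are densely covered, with a median of 2.90 RPM per kb in total DMSO, and ratios climbed with density over all genes; once that trend was removed the group still lay 0.19 and 0.21 above the median gene.

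Of the contractile genes, 4 carry a CArG box, the sequence bound by serum response factor, in the 250 bases before their RefSeq start, and these are shown because the factor's textbook targets are genes of this group. A CArG box on either strand was found in 4 of 20 contractile genes with a promoter sequence, against 89 of 8587 genes (1.04%) overall and 9 of 373 (2.41%) among the genes higher in both antibodies. The promoters run from 250 bases before the start to the base before it, in GRCh38.p14, with the box in capitals. CNN2 is at chr19:1026358-1026607 (plus strand), FLNA at chrX:154374635-154374884 (minus strand), MYLK at chr3:123620549-123620798 (minus strand) and TPM4 at chr19:16067288-16067537 (plus strand).
CNN2: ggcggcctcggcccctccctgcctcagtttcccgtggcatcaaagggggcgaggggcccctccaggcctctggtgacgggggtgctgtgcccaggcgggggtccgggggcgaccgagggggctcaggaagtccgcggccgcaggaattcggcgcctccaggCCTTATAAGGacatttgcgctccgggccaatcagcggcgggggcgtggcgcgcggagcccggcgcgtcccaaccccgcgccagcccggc
FLNA: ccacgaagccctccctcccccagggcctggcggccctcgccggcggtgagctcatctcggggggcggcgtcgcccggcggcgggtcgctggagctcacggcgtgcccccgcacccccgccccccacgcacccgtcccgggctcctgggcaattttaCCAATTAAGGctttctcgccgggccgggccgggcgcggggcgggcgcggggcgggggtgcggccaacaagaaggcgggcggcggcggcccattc
MYLK: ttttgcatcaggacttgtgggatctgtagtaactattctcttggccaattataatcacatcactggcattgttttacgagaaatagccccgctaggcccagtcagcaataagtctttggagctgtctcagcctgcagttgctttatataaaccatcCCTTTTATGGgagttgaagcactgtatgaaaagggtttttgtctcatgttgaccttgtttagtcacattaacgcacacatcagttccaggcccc
TPM4: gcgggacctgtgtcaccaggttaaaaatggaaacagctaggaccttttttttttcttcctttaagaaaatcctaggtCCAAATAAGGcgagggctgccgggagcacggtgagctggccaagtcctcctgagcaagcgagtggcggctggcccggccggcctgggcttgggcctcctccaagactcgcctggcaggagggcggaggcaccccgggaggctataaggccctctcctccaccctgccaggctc
The box starts 89 bases before the start in CNN2, 94 in FLNA and MYLK and 173 in TPM4. Of these genes CNN2, FLNA and TPM4 (0.41 and 0.51) were higher in both antibodies, and MYLK, which encodes myosin light chain kinase, had 0.23 and 0.14. A match describes these letters and is not a site or a cause, and a gene without one in this window may hold it elsewhere.

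Immediate early transcription regulators, the genes that growth factors switch on without new protein, were next. Of 19 measured of 25 listed, 17 in total RNAPII and 16 in Ser2 lay above the median gene, the median excess was 0.23 and 0.33, and 7 were higher in both, beside 4.62% of all genes. MAFF, a small Maf factor, had 50.4 RPM in total ATRi against 35.5 in DMSO and 24.3 RPM in Ser2 ATRi against 14.9 in DMSO, with ratios of 0.50 (0.37 to 0.64) and 0.68 (0.52 to 0.88). FOSL1, an AP-1 subunit, had 120 RPM in total ATRi against 91.6 in DMSO and 58.9 RPM in Ser2 ATRi against 39.1 in DMSO (0.39 and 0.59). JUN, JUNB and FOSL2 were also higher in both antibodies, whereas MYC and KLF10 passed the threshold in Ser2 alone (0.29 and 0.51, and 0.29 and 0.57). FOSB, another AP-1 subunit, was lower in total RNAPII (-0.30, -0.48 to -0.14) with -0.19 in Ser2, but its whole span overlaps another listed gene. The group is dense (5.90 RPM per kb), and its excess with the density trend removed was 0.13 and 0.14.

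YAP and TGF-beta targets, which respond to tension and to that growth factor, had medians 0.21 and 0.29 above all genes. Of 16 measured, 14 and 15 lay above the median gene and 6 were higher in both, beside 4.62% of all genes. CCN1, a secreted matrix-associated protein and standard YAP target, had 133 RPM in total ATRi against 91.0 in DMSO and 65.4 RPM in Ser2 ATRi against 40.1 in DMSO, with ratios of 0.54 (0.46 to 0.62) and 0.70 (0.60 to 0.81). AJUBA, a LIM protein that restrains the Hippo kinases, had 0.48 and 0.65, CCN2 0.39 and 0.68, and AXL 0.42 and 0.54. SKIL, a repressor of TGF-beta signalling, was higher in total RNAPII (0.39) and at 0.05 in Ser2. The excess with the density trend removed was 0.16 and 0.21. Genes of the ERK feedback, the phosphatases and Sprouty proteins that damp the same growth factor signals, had smaller medians of 0.06 and 0.12 above all genes over 12 measured, with DUSP1 at 0.40 and 0.55 and SPRY4 at 0.37 and 0.53.

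Most p53 targets lay above the median gene with both antibodies: 21 of 23 in total RNAPII and 20 of 23 in Ser2, with medians 0.18 and 0.25 above all genes. Past the threshold, 5 were higher in total RNAPII and 13 in Ser2, and the 5 were higher in both, beside 8.75%, 12.9% and 4.62% of all genes. CDKN1A, which encodes the cyclin-dependent kinase inhibitor p21, had 49.1 RPM in total ATRi against 32.6 in DMSO and 24.5 RPM in Ser2 ATRi against 14.1 in DMSO, with ratios of 0.58 (0.46 to 0.72) and 0.77 (0.61 to 0.97). BBC3, the gene of the apoptosis factor PUMA, had 55.5 RPM in total ATRi against 41.1 in DMSO and 24.5 RPM in Ser2 ATRi against 15.1 in DMSO (0.43 and 0.68). GADD45A (0.37 and 0.72), TP53I3 (0.37 and 0.42) and BTG2 (0.39 and 0.40) were the others. MDM2, which encodes the ligase that degrades p53, had 0.29 and 0.24, and the long gene SESN1 0.04 and -0.07. With the density trend removed the medians were 0.10 and 0.16.

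Replication-dependent histone genes also lay above the median gene, 23 of 23 measured in total RNAPII and 22 of 23 in Ser2, with medians 0.19 and 0.31 above all genes. H1-2, a linker histone, had 54.7 RPM in total ATRi against 43.0 in DMSO and 31.3 RPM in Ser2 ATRi against 19.8 in DMSO (0.34 and 0.65), and H2AC21 had 0.37 and 0.55. With 39.3 RPM per kb at the median they are the densest group examined, and once the trend with density was removed their medians were -0.02 and -0.01 and 43.5% of them lay above the median gene with each antibody. Histone genes have near-identical copies, so reads may be shared among them.

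Matrix genes split. Of 27 collagen and other matrix genes measured, 9 were higher in both antibodies and 1, TNC, was lower in both, beside 4.62% and 0.151% of all genes. The group median lay 0.11 and 0.12 above all genes, 0.04 and 0.00 with the density trend removed, and 0.02 in total RNAPII without genes that overlap another. LOX, which crosslinks collagen, had 29.7 RPM in total ATRi against 20.1 in DMSO and 15.2 RPM in Ser2 ATRi against 11.1 in DMSO (0.55 and 0.44), but it shares 82.0% of its span with other listed genes. FN1, the ITGA5 ligand fibronectin, had 281 RPM in Ser2 ATRi against 209 in DMSO, a ratio of 0.43 (0.38 to 0.48). The basement membrane collagens COL4A1 (0.35 and 0.38) and COL4A2 (0.32 and 0.32), which share a promoter region, were higher as well. COL12A1 had -0.19 and -0.14, COL8A1 -0.15 and -0.14, and COL3A1 0.03 and -0.12. The 13 measured genes of hyaluronan, proteases and their inhibitors had medians 0.25 and 0.02 above all genes, and the Ser2 median was -0.07 with the density trend removed. Of these 13, 5 were higher in both antibodies, beside 4.62% of all genes: TIMP2 (0.50 and 0.55), TIMP3 (0.36 and 0.47), PLAT (0.38 and 0.45) and PLAUR (0.32 and 0.39), with MMP14. TIMP2 shares 44.6% of its span with other listed genes. HAS2, a hyaluronan synthase, had -0.25 and -0.13.

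Cytosolic ribosomal protein genes formed the group with the lowest values. All 71 listed were measured, and 5 in total RNAPII and 11 in Ser2 lay above the median gene. The medians were 0.27 and 0.16 below all genes, at log2 ratios of -0.21 and -0.10. Past the threshold, 20 were lower in total RNAPII and 7 in Ser2, 3 (RPL13A, RPL32 and RPL22L1) were lower in both, and 1 was higher in both. Of all genes, 1.36% were lower in total RNAPII, 0.694% in Ser2 and 0.151% in both, and 4.62% were higher in both. Ratios ran between -0.60 and 0.40 in total RNAPII and between -0.50 and 0.35 in Ser2. These genes are short and dense (4.78 RPM per kb), and genes of such density mostly lay above the median gene, so with the trend removed the medians were 0.36 below all genes with each antibody. The gene higher in both, RPL26L1 (0.40 and 0.30), and the next, RPL36AL (0.26 and 0.25), encode variant copies of ribosomal proteins. RPL22L1, at the other end, is a variant as well. RPS19, with 43.7 RPM in total ATRi against 55.4 in DMSO and 21.2 RPM in Ser2 ATRi against 26.0 in DMSO, and RPSA, with 22.4 RPM in total ATRi against 28.9 in DMSO and 11.0 RPM in Ser2 ATRi against 13.1 in DMSO, are typical of the lower members. Ribosomal protein genes have many processed pseudogenes, and how reads with several matches were counted is not given in the sources used here.

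Ribosomal protein transcripts begin with a run of pyrimidines, through which their translation follows growth signals. The start sites are shown because such a run was more frequent in this group, which lay lowest, than in all genes. In the 30 bases around the RefSeq start, a run of at least 8 C or T that comes within 15 bases of the start was found in 44 of 58 ribosomal protein genes with a sequence (75.9%), against 13.1% of 8587 genes. Each line gives 15 bases on either side of the start, in GRCh38.p14, with the longest pyrimidine run in capitals. The stretches are at chr19:49487593-49487622 for RPL13A, chr19:41860240-41860269 for RPS19, chr6:34426055-34426084 for RPS10, chr3:39406705-39406734 for RPSA, chr3:12841551-12841580 for RPL32, chr3:170870181-170870210 for RPL22L1 and chr5:172958714-172958743 for RPL26L1.
RPL13A: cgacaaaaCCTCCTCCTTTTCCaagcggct
RPS19: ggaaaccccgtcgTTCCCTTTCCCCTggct
RPS10: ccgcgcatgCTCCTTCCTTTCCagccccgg
RPSA: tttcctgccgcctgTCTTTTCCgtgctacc
RPL32: gggttacgacccatcagCCCTTgcgcgcca
RPL22L1: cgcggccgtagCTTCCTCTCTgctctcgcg
RPL26L1: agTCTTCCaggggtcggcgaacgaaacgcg
The longest run is 14 bases in RPL13A, 13 in RPS19 and RPS10, 8 in RPSA and 10 in RPL22L1, and 6 in RPL26L1 and 5 in RPL32. The 44 genes with such a run had median log2 ratios of -0.23 in total RNAPII and -0.09 in Ser2, and the 14 without one -0.19 and -0.04, so the genes with and without it lay within 0.05 of each other. Mitochondrial ribosomal protein genes had medians 0.10 below all genes in total RNAPII and within 0.01 of them in Ser2 over 58 measured.

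The genes of DNA replication, whose forks ATR guards, were slightly below the median gene and within the threshold. Of 18 genes of the replicative polymerases and clamp, 0 in total RNAPII and 4 in Ser2 lay above the median gene, with medians 0.16 and 0.10 below all genes, and 0 passed the threshold in either direction with either antibody. PRIM1, the primase subunit, had 14.8 RPM in total ATRi against 17.9 in DMSO and 9.47 RPM in Ser2 ATRi against 11.8 in DMSO, the lowest of them at -0.27 (-0.49 to -0.06) and -0.30 (-0.57 to -0.06). POLA1, the catalytic subunit of polymerase alpha, had -0.22 and -0.11, and PCNA, the sliding clamp, 0.01 and 0.06. Of 23 genes of the MCM helicase and origin licensing, 3 and 7 lay above the median gene, with medians 0.10 and 0.11 below all genes. CDC6, which loads the helicase, had -0.18 and -0.21, its inhibitor GMNN -0.16 and -0.22, and MCM10 -0.21 and -0.09. ORC6 was the exception, at 0.00 in total RNAPII and 0.38 (0.11 to 0.72) in Ser2. With the density trend removed the medians of these groups lay farther below, at -0.19 and -0.13 for the polymerases and -0.15 and -0.12 for the helicase and licensing genes. Nucleotide supply genes had medians 0.07 below all genes in total RNAPII and 0.03 above in Ser2 over 10 measured. With either antibody 0 of them passed the threshold. TK1, thymidine kinase, was the highest of them, at 0.25 and 0.30. E2F and RB genes had medians 0.09 below all genes in total RNAPII and within 0.01 of them in Ser2.

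The target and its pathway were measured in the same way. ATR itself (chromosome 3, 142449235 to 142578826) had 54.7 RPM in total ATRi against 65.8 in DMSO and 50.8 RPM in Ser2 ATRi against 55.4 in DMSO, with ratios of -0.26 (-0.38 to -0.15) and -0.13 (-0.24 to -0.02). The inhibitor acts on the kinase and not on its gene, so this value is no check of the treatment. CHEK1, the kinase ATR activates, had 0.13 and -0.08. WEE1, which encodes the kinase that holds CDK1 inactive, was the 1 gene of 14 in this group higher in both antibodies, beside 4.62% of all genes, with 111 RPM in total ATRi against 80.3 in DMSO and 49.4 RPM in Ser2 ATRi against 36.8 in DMSO (0.47, 0.38 to 0.56, and 0.42, 0.30 to 0.54). The other 13 lay between -0.26 and 0.13 in total RNAPII, and the group medians were 0.07 and 0.10 below all genes. Double-strand break repair genes were similar, at 0.06 and 0.07 below all genes over 21 measured, with BLM, a helicase of recombination, at -0.23 and -0.13 and XRCC3 at 0.19 and 0.42, though XRCC3 shares 93.0% of its span with other genes.

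Mitotic genes, which are transcribed as cells near division, had medians 0.17 above all genes in total RNAPII and 0.05 in Ser2 (0.13 and 0.01 with the density trend removed). Above the median gene were 40 of 46 with the total antibody and 31 with Ser2. Past the threshold, 14 were higher in total RNAPII, where 8.75% of all genes were, 5 in Ser2, where 12.9% were, and 5 in both, where 4.62% were. CCNB2 (cyclin B2) had 34.1 RPM in total ATRi against 24.3 in DMSO and 19.1 RPM in Ser2 ATRi against 13.6 in DMSO, and CCNF (cyclin F) had 33.2 RPM in total ATRi against 25.1 in DMSO and 19.7 RPM in Ser2 ATRi against 15.5 in DMSO. Their ratios were 0.48 and 0.48, and 0.40 and 0.33. CDC20 (0.33 and 0.39), AURKA (0.32 and 0.33) and CDC25B (0.35 and 0.35), the phosphatase that activates CDK1, were the others higher in both. KIF20A, a kinesin of cytokinesis, differed most between the antibodies in this group, with 13.4 RPM in total ATRi against 10.5 in DMSO and 6.09 RPM in Ser2 ATRi against 7.06 in DMSO, ratios of 0.34 and -0.20. CENPE, the kinetochore kinesin, had 0.47 and 0.16.

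The CHR element, TTTGAA on either strand, through which the DREAM complex represses mitotic genes, was found in the 250 bases before the start of 22 of 39 mitotic genes with a promoter sequence (56.4%), against 8.20% of all genes. The promoters of CCNB2, at chr15:59104896-59105145 (plus strand), and CDC20, at chr1:43358731-43358980 (plus strand), are shown as genes higher in both antibodies, with the element in capitals (GRCh38.p14).
CCNB2: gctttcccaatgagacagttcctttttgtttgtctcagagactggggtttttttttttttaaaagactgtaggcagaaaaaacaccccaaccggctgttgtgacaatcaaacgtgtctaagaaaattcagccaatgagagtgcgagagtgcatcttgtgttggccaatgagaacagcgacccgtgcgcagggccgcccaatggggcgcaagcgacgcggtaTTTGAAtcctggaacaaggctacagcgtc
CDC20: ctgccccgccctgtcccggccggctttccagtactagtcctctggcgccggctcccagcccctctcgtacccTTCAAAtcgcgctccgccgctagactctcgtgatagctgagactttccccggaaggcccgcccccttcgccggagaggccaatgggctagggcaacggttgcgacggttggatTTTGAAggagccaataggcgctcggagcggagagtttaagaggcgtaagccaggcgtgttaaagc
CCNB2 holds 1 element, 29 bases before the start, and CDC20 holds it on both strands. The 22 mitotic genes with the element had median log2 ratios of 0.24 in total RNAPII and 0.14 in Ser2, and the 17 without it 0.23 and 0.06. The E2F motif TTTCCCGC was found before 5 of 20 helicase and licensing genes and 3 of 17 polymerase genes, against 2.39% of all genes.

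The polymerase's own genes gave small values. POLR2A, the gene of the subunit that both antibodies bind, had 75.3 RPM in total ATRi against 57.9 in DMSO and 35.7 RPM in Ser2 ATRi against 27.0 in DMSO, with ratios of 0.38 (0.28 to 0.48) and 0.39 (0.26 to 0.54). POLR2L, a small subunit that shares 47.7% of its span with other listed genes, had 0.33 and 0.54, while POLR2D had -0.05 and -0.05. The median of 10 subunits lay 0.03 above all genes in total RNAPII and 0.17 above in Ser2, and at -0.04 and 0.08 with the density trend removed. CDK9, the kinase that releases paused RNAPII, had 0.14 in total RNAPII and 0.49 (0.18 to 0.89) in Ser2, while CDK12 (0.02 and -0.07) and CDK13 (0.08 and -0.03), which phosphorylate serine 2 further on, were near 0. Over 29 genes of serine 2 kinases and elongation the medians were 0.08 above and 0.04 below all genes.

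Stress programmes other than p53 were mixed. Interferon response genes had medians 0.14 and 0.17 above all genes over 14 measured, with IFI6 at 0.35 and 0.66 and IFIT1, which lies within another listed gene, at 0.50 and 0.28. Without overlapping genes the interferon median in Ser2 was 0.05 above all genes. Genes of the ATF4 response had 0.10 and 0.13 over 16, with the secreted protein gene STC2 at 77.2 RPM in total ATRi against 52.8 in DMSO and 39.2 RPM in Ser2 ATRi against 23.7 in DMSO (0.54 and 0.71). The amino acid transporter gene SLC7A5 had 0.44 and 0.49. The ATF4 median in Ser2 was 0.02 with the density trend removed. Unfolded protein response genes were at -0.01 and 0.09 of all genes, with HERPUD1 at 0.49 and 0.47, NF-kB and cytokine genes at 0.09 and 0.05, with IL11 at 0.25 and 0.69, and glucose uptake and glycolysis at 0.02 and 0.14, with SLC2A1 at 0.48 and 0.42. By the mean of both ratios, the lowest interferon gene was OAS2 (-0.09 and -0.09) and the lowest ATF4 gene SHMT2 (-0.17 and -0.03). In the groups after these, the lowest were HYOU1 (-0.10 and -0.09), BIRC3 (-0.22 and -0.19) and GPI (-0.21 and -0.002). The medians of heat shock genes (0.02 and 0.00), cholesterol synthesis genes (-0.02 and -0.02) and proteasome subunits (-0.04 and -0.03) stayed within 0.05 of all genes. Their members spread wider. In the same order, log2 ratios ran from -0.16 to 0.42, -0.12 to 0.30 and -0.20 to 0.30 in total RNAPII. In Ser2 they ran from -0.12 to 0.58, -0.23 to 0.38 and -0.17 to 0.37.

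**Figure D4:**
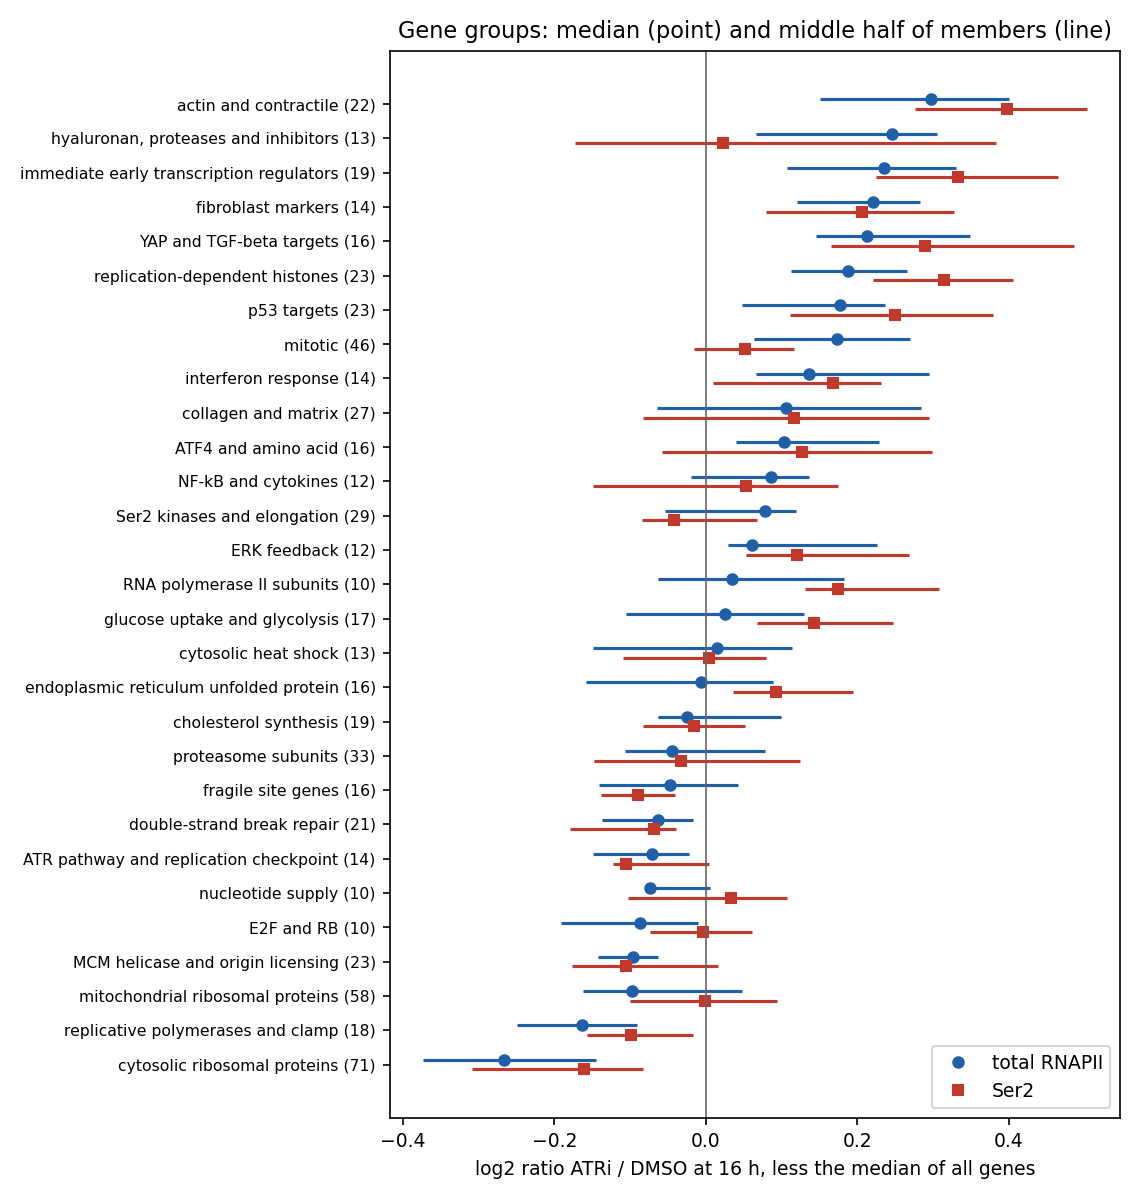
Median log2 ratio of ATRi to DMSO at 16 h in 29 gene groups, less the median of all genes, in total RNAPII (blue circles) and Ser2 (red squares); lines span the quartiles of the members and the number measured stands in brackets. Actin and contractile genes are at the top with 0.30 and 0.40, and cytosolic ribosomal protein genes at the bottom with -0.27 and -0.16.

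Few genes were taken apart by the antibodies. Of the 23 that passed 0.3 in opposite directions, 20 were lower in total RNAPII and higher in Ser2, and most had few reads. The 3 that were higher in total RNAPII and lower in Ser2, named after their values were seen, were UBA7 (0.35 and -0.32), TRADD (0.46 and -0.31) and the uncharacterised LOC100129215 (0.30 and -0.36). Among named genes with at least 100 reads in each library, Ser2 exceeded total RNAPII most in CAMK2N1, an inhibitor of the calcium-dependent kinase CaMKII. It had 14.4 RPM in total ATRi against 13.0 in DMSO and 7.17 RPM in Ser2 ATRi against 3.11 in DMSO, so that the ratio was 0.15 (-0.08 to 0.38) in total RNAPII and 1.09 (0.84 to 1.57) in Ser2, the highest Ser2 ratio of any gene tested. NDUFS7, a subunit of respiratory complex I, had -0.41 and 0.35, the transporter gene SLC22A13 0.08 and 0.82, PPP1R9B, which encodes spinophilin, -0.15 and 0.53, and JMJD8, which overlaps another gene throughout, -0.24 and 0.43. At the other end GBA2, a glucosylceramidase, had 23.9 RPM in total ATRi against 17.9 in DMSO and 8.19 RPM in Ser2 ATRi against 9.96 in DMSO (0.41 and -0.27). ZNF189 (0.54 and -0.13), UBA3, part of the enzyme that activates NEDD8 (0.30 and -0.33), DEPDC7 (0.51 and -0.04) and the interferon-induced IFI44 (0.19 and -0.35) followed.

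Gene length and RNAPII density were related to the ratio over the whole table. In 5 equal groups by length, the median log2 ratio was 0.10, 0.08, 0.06, 0.05 and 0.00 in total RNAPII going from the shortest genes to the longest, and 0.20, 0.13, 0.07, 0.03 and -0.01 in Ser2. Of the 1282 genes of up to 5 kb, 153 (11.9%) were higher in both antibodies, and of the 418 genes over 300 kb, 1 (0.239%) was. The genes over 300 kb had medians of -0.06 and -0.05. The 552 genes higher in both had a median length of 11.3 kb, against 32.1 kb for all genes. Genes at common fragile sites, where very long genes meet late replication, had medians 0.05 and 0.09 below all genes over 16 measured, but 0.02 above and 0.02 below with the density trend removed. Among these FOXP1 had 311 RPM in total ATRi against 255 in DMSO and 258 RPM in Ser2 ATRi against 238 in DMSO (0.28 and 0.12), and GPC6, of 1180.6 kb, had -0.14 and -0.10.

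The ratio also differed between groups by density. Between the sparsest and the densest of 5 equal groups by RPM per kb in DMSO, the median log2 ratio differed by 0.16 in total RNAPII and 0.21 in Ser2. The DMSO libraries enter both the density and the ratio, so density was also taken from the 14 h libraries, which enter no ratio, and the differences were then 0.16 and 0.22. Of the densest group by DMSO, 14.6% of genes were higher in both antibodies, and of the sparsest 0.376%. Once the trend with density was removed, the length groups had medians between -0.03 and 0.01 in total RNAPII and between -0.02 and 0.02 in Ser2. Reads outside the listed genes had an estimated density of 0.213 RPM per kb in total ATRi against 0.224 in DMSO, and 0.279 RPM per kb in Ser2 ATRi against 0.284 in DMSO. They make up more of the signal of a sparse gene, and their part in the order by density was not tested.

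**Figure D5:**
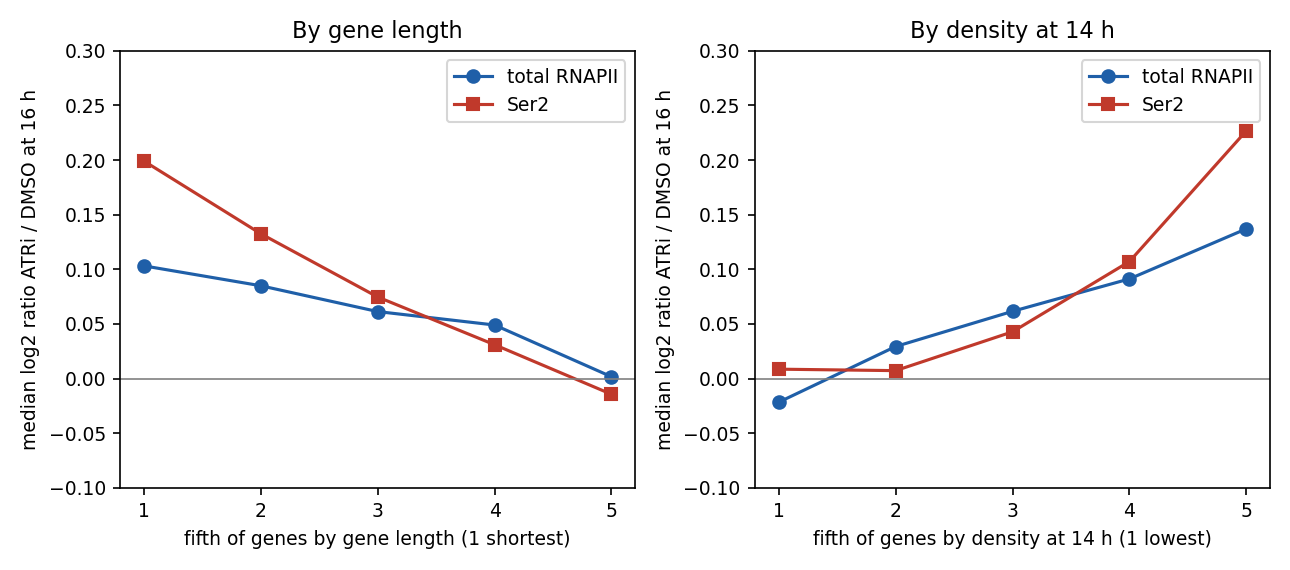
Median log2 ratio of ATRi to DMSO at 16 h in total RNAPII (blue circles) and Ser2 (red squares) in 5 equal groups of genes, by gene length (left) and by RPM per kb in the 14 h library of the same antibody (right). Medians go down with length and up with density, in Ser2 from 0.20 to -0.01 with length.

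Chromosomes differed little. The medians of autosomes and X were between 0.03 (X) and 0.07 (chromosome 11) in total RNAPII and between 0.01 (chromosome 4) and 0.13 (chromosome 19) in Ser2. In 521 windows of 5 Mb with at least 5 genes, the central 90% of window medians reached from -0.05 to 0.14 in total RNAPII and from -0.07 to 0.17 in Ser2, and the antibodies' window medians had an r of 0.453. Neighbours resembled each other at short range. For 674 pairs of adjacent genes up to 1 kb apart, the ratios of the pair had an r of 0.290 in total RNAPII and 0.341 in Ser2, for 1194 pairs up to 10 kb apart 0.239 and 0.267, and for pairs over 100 kb apart 0.0374 and 0.104. Close genes can share reads at their borders. Pairs were taken in order along the chromosome among genes that overlap no other listed gene, which left out 4102 genes (34.3%).

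The genes picked at 16 h were looked up in the libraries of the later hours, which the 16 h comparison did not use. Of the 552 genes higher in both antibodies at 16 h, 34 (6.16%) lay above the median gene in both antibodies at 19 h, against 26.5% of all genes, and 388 (70.3%) did at 22 h, against 36.7% of all genes. Their medians relative to all genes were -0.12 in total RNAPII and -0.04 in Ser2 at 19 h, and 0.30 and 0.14 at 22 h. Of the 18 genes lower in both at 16 h, 4 (22.2%) lay below the median gene in both at 19 h, against 26.5% of all genes, and 3 (16.7%) at 22 h, against 36.7%. In their medians, the 16 h gains thus lay on the other side of the median gene at 19 h and on the same side at 22 h. Whether the hours differ was not tested, since each holds 1 library per group. The 552 genes were short and dense (medians 11.3 kb and 2.02 RPM per kb in total DMSO), and no density trend was removed at 19 or 22 h. Ribosomal protein genes, the lowest group at 16 h, lay above the median gene at 22 h in 71 of 71 cases in total RNAPII and 65 in Ser2.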

How the data were processed

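RNAPII ChIP-seq libraries of BJ hTERT cells were compared between ATRi and DMSO at 16 h. The authors deposited RPM per gene, reads over the gene span per 1000000 library reads, without division by length. The submitters' processing notes list Bowtie2 2.3.3.1, SAMtools 1.4 and hg38. How reads were counted, the annotation, how genes were selected, and whether duplicates, input or a spike-in were dealt with are not given in the sources used here. In the 4 columns used, 100% of the deposited RPM values were whole multiples of 1 read (tolerance 0.01 reads), so read counts were recovered and served for counting intervals (exact, 95%). A floor of 3 reads was 0.0784 to 0.156 RPM.

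Ratios were taken on log2(RPM + 0.5), for nuclear genes whose mean over the 4 libraries reached 1 RPM. Symbols came from position against RefSeq genes (Jaccard index of at least 0.8, or 0.5 with an end within 100 bp) for 10473 genes (84.3%); members without a match were not measured. Promoter sequences of RefSeq (GRCh38.p14) matched 8587 of 10327 named genes tested. The members and lists were chosen with earlier results of these data known. Genes named are the 15 highest and 15 lowest by the weaker of the antibodies' ratios and the 5 at each end of their difference (at least 100 reads in each library), and ATR, CHEK1, POLR2A and CDKN1A. The 2 highest and 2 lowest of each list were also selected, but not all of them are named in the text. Which of them are named, and further list members, are examples chosen after their values were seen. Alternatives were pseudocounts, filters, thresholds, centring on the median gene, removal of the trend with density, subtraction of the background density, removal of overlapping genes, and, chosen after seeing the data, density from 14 h and edgeR's quasi-likelihood test on the recovered counts. On simulated counts holding counting error only, with 200 genes changed 2-fold, 200 passed the threshold in both antibodies, as did 11 unchanged genes. Error between libraries and changes below 2-fold were not simulated, so these numbers give no error rate for the real comparison. Python 3.11.15, pandas 2.3.3, scipy 1.17.1, R 4.3.3 and edgeR 4.0.16 were used.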

Additional observations from a re-analysis of the deposited data

Results flagged for a closer look

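The position of 4 gene groups relative to the median of all genes lay on opposite sides at different hours with both antibodies. These differences were not tested, since each hour holds 1 library per group, and no density trend was removed at 19 or 22 h. Replication-dependent histones lay at 0.188 in total RNAPII and 0.315 in Ser2 at 16 h, against -0.25 and -0.11 at 19 h. Collagen and matrix genes lay at 0.106 and 0.117 at 16 h, against -0.10 and -0.07 at 19 h. With the density trend removed, the 16 h values were -0.02 and -0.01 for histones, 0.04 and 0.00 for collagen and matrix genes, and 0.13 and 0.05 for fibroblast markers. Fibroblast markers lay at 0.221 and 0.207 at 16 h, against -0.14 and -0.09 at 19 h, where 1 of 14 in total RNAPII and 0 of 14 in Ser2 were above the median gene. Cytosolic ribosomal protein genes lay at -0.267 and -0.161 at 16 h, against 0.38 and 0.17 at 22 h, where 71 and 65 of 71 were above it.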

How the results depend on the processing

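The 552 genes higher and 18 lower in both antibodies rest on the scale. They were 310 and 48 after centring on the median gene, 105 and 123 with the trend with density removed, and 1529 and 210 with the background density subtracted. With the trend removed, lower genes thus outnumbered higher ones. A threshold of 0.2 gave 1380 and 93, and one of 0.5 gave 62 and 2. Without overlapping genes 354 were higher. The lower genes were 10 with a pseudocount of 1 RPM, 29 with no filter and 11 at a mean of at least 3 RPM. The 23 opposite genes were 35 with a pseudocount of 0.1 RPM and 7 with 1 RPM, 46 with no filter and 6 at 3 RPM or more, 211 with the background subtracted, and 96 and 0 at thresholds of 0.2 and 0.5. The r of 0.505 was 0.479 and 0.526 with pseudocounts of 0.1 and 1 RPM, 0.463 with no filter, 0.546 at 3 RPM or more, 0.423 with the trend removed and 0.309 with the background subtracted, and the share on the same side of the median gene was 64.8% and 65.5% in these last settings. With the trend removed, 43.5% of histones lay above the median gene in total RNAPII and 43.5% in Ser2. Group medians near 0 also changed side in that setting, among them NF-kB and cytokines (0.05, then -0.05), nucleotide supply (0.03, then -0.09) and hyaluronan and proteases (0.02, then -0.07) in Ser2, and RNAPII subunits (0.03, then -0.04), heat shock (0.02, then -0.05) and fragile site genes (-0.05, then 0.02) in total RNAPII. Of 462 shares of group members above the median gene 453 were the same by the spread used, and of 2392 values of named genes 2208 were, with 0 reversed. The quasi-likelihood test of edgeR with the antibody as a term called 2066 genes higher and 254 lower at an adjusted p of 0.05; its residual is the disagreement of the antibodies, which are not replicates. No paired analysis was possible because each group held 1 library and the labels carry no replicate numbers. Genes under 140 reads in their shallowest library had counting errors, computed without the pseudocount, about as wide as the spread of their ratios.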
